A study of Mus musculus with 24 samples.

Results

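The genes of the respiratory chain and ATP synthase were compared in tibialis anterior, a shin muscle made mostly of fast fibres, between control mice and mice with a muscle knockout of Hira, which encodes a histone chaperone. A gene was taken when its array annotation, in any case, began with Nduf, Uqcr, Atp5 or Cox4 to Cox8, or read Sdha, Sdhb, Sdhc, Sdhd, Cyc1 or Cycs. This rule took 88 rows of the array and 78 genes, of 17742 named genes in all. By symbol, 34 were complex I subunits, 4 complex I assembly factors, 4 complex II, 6 complex III, 15 complex IV and 11 complex V genes. The other 4 carry such a symbol on the array, but their products are not subunits: Emc8 (annotated Cox4nb), Dmac2l (Atp5s), Dmac2 (Atp5sl) and Cox7a2l. No row carried Cyc1, the cytochrome c1 gene of complex III, or Cycs, a cytochrome c gene. Both, like the 13 subunits encoded by mitochondrial DNA, were therefore not analysed here.

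Control animals had the genotype Myf6 cre/+ with Hira flox/+, and knockout animals Myf6 cre/+ with Hira flox/-. Both groups thus carried Cre at the Myf6 locus, which is active in muscle fibres. Controls kept 1 Hira copy without loxP sites, and knockout animals had a null copy in all cells of the body, so cells other than fibres differed in Hira copy number too. All were 6 months old, of strain C57BL6/J;129S1/SvImJ, with 4 animals per group and 3 hybridisations of each animal's RNA. Animals are called control 1 to 4 and knockout 1 to 4; the numbers pair nothing.

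The respiratory chain passes electrons from NADH through complex I, or from succinate through complex II, to ubiquinone, then through complex III and cytochrome c to complex IV, which reduces oxygen. Complexes I, III and IV pump protons across the inner mitochondrial membrane, and complex V, the ATP synthase, makes ATP as they return. Most subunits are encoded in the nucleus, and in muscle several of them exist as tissue isoforms.

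Values are log2 of the deposited probe intensity, averaged over the hybridisations of an animal, and a difference is the knockout mean minus the control mean. A gene was called lower or higher when its Benjamini-Hochberg adjusted p over all 17742 genes, from limma, was under 0.05. On the 24 arrays the column medians were all 626.429, and the correlation of log2 values was 0.985 to 0.995 between arrays of an animal and 0.976 to 0.993 between animals of a group. The Hira row was 8.97 ± 0.11 (SD, n = 4) in controls and 8.82 ± 0.35 in knockouts (adjusted p = 0.623); its place relative to the deleted part is not given, so it does not check the genotype. The 7 muscle fibre markers measured were well above the dim level of the arrays (125, or 6.96 on the log2 scale), with summed intensities of 1938142 to 2278851 in controls and 1524950 to 2049359 in knockouts. In bulk muscle, fewer cells of a type and less RNA per cell cannot be told apart.

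Of the 78 genes, 8 were lower in knockout muscle and 0 were higher. That is 10.3%, beside 5.01% of all genes called lower, 4.28% called higher and 9.28% called in either direction. With limma, 23 of the 78 had an unadjusted p under 0.05, beside 4264 of all 17742 genes. The median difference was -0.21, against -0.066 over all genes, and 65 of the 78 differences were negative. Single differences ran from -0.74 to 0.37, so none reached a factor of 2 in either direction: the largest was 1.67-fold. All 4 knockouts lay below all 4 controls for 21 of the 78 genes, beside 1811 of all 17742 (10.2%). They lay above all controls for 2 of the 78, beside 1285 of all 17742 (7.24%).

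Most of these genes are among the brightest on the array, and bright genes as a whole were also somewhat lower. At a mean log2 level of 16 or above, 4 of 41 members (9.76%) were called lower, with a median of -0.21, and the same was true of 24 of all 251 genes at that level (9.56%), with a median of -0.15; 0 of the 41 and 3.59% of the 251 were called higher. All 4 knockouts lay below all 4 controls for 12 of the 41 and 61 of the 251, and above them for 0 and 11. An unadjusted p under 0.05 (limma) was found for 10 of the 41 and 78 of the 251. Below that level 4 of 37 members (10.8%) were called lower and 0 higher, with a median of -0.15. Of all 17491 genes there 4.94% were called lower and 4.29% higher, with a median of -0.065. The size of the shift also depended on scaling. After quantile normalization the median was -0.096 for members and -0.014 for all genes. After cyclic loess these were -0.092 and -0.0026.

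**Figure D1:**
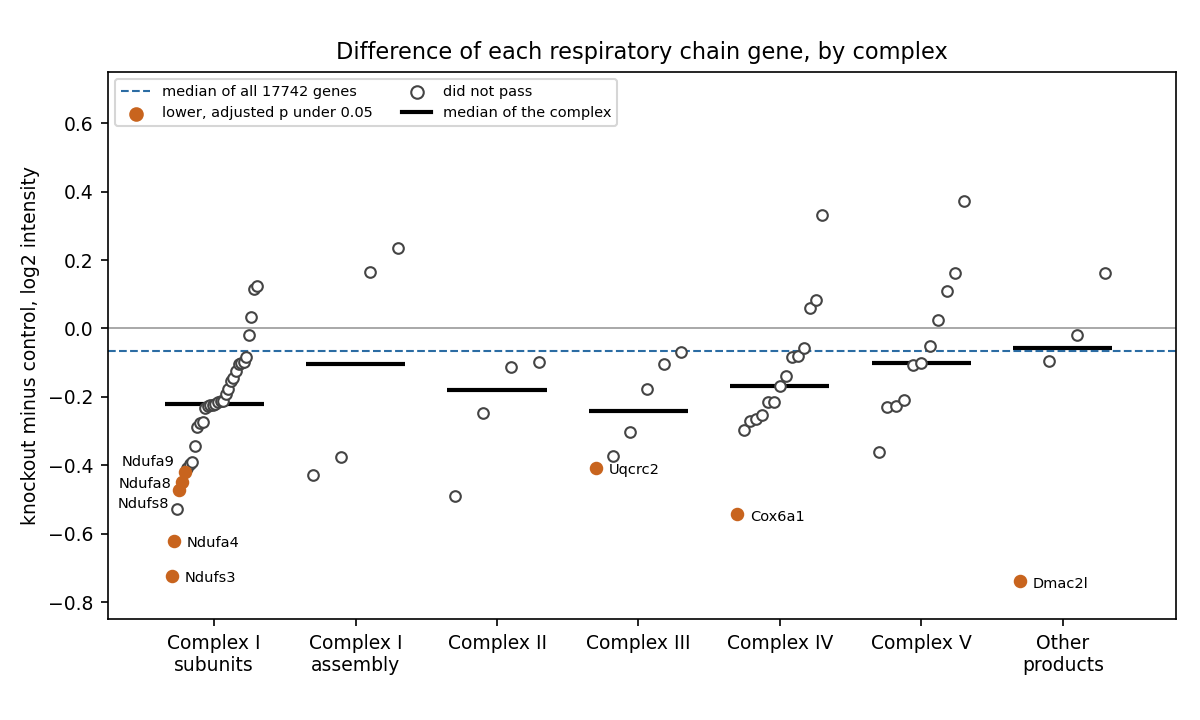
Knockout minus control difference in log2 intensity (y axis) of each of the 78 genes, grouped on the x axis by complex; filled points were lower at an adjusted p under 0.05, open points did not pass, black bars are medians of a group and the dashed line is the median of all 17742 genes. Complex I holds 34 of the 78 points and 5 of the 8 filled ones, and complexes II and V hold no filled point.

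Complex I, the NADH dehydrogenase at the entry of the chain, held 34 of the 78 genes and 5 of the 8 calls. Those 5 were 14.7% of its subunit genes, beside 5.01% of all genes and 9.56% of all genes at level 16 or above. In complex III 1 of 6 was lower (16.7%). Of the 34 complex I genes 31 had a negative difference, and the median was -0.22. Electrons move in complex I through a conserved core of subunits, with flavin and iron-sulfur centres, held in a shell of accessory subunits. Of the 6 measured core genes (Ndufs1, Ndufs3, Ndufs7, Ndufs8, Ndufv1, Ndufv2), Ndufs3 and Ndufs8 were lower and the median was -0.30. Of the 28 others, 3 were lower (Ndufa4, Ndufa8, Ndufa9), with a median of -0.22. Whether core and other subunits differ was not tested.

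Ndufs3, a core subunit of the arm that hands electrons to ubiquinone, stood at 13.99, 14.33, 14.07 and 14.09 in control animals 1 to 4. In knockouts 1 to 4 it was 13.58, 13.22, 13.33 and 13.46. Every knockout was below every control. The difference was -0.72 ± 0.13 (SE; 1.65-fold lower, adjusted p = 0.0052), the largest among subunits, and the call held without any 1 animal. Ndufs8, an iron-sulfur subunit of the same arm, was 15.37, 15.78, 15.49 and 15.53 in controls against 15.13, 15.001, 14.98 and 15.18 in knockouts. These groups did not overlap either, and Ndufs8 was lower by a difference of -0.47 ± 0.12 (SE; adjusted p = 0.0347); leaving out any 1 animal other than control 1 ended that call.

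Ndufa4 was named as a complex I protein and is now regarded as a subunit of complex IV. Control animals 1 to 4 measured 17.94, 18.45, 18.09 and 18.27, and knockouts 17.43, 17.69, 17.48 and 17.68. The ranges did not overlap, with a difference of -0.62 ± 0.14 (SE; 1.54-fold lower, adjusted p = 0.0169). Without knockout 3 its adjusted p was 0.0558. Counted with complex IV, it leaves 4 of 32 complex I subunits lower once its paralogue Ndufa4l2 is set aside as well, and makes 2 of 16 in complex IV.

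Ndufa8 and Ndufa9 are accessory subunits of complex I. Ndufa8 was 16.83, 17.12, 17.03 and 16.99 in controls and 16.57, 16.61, 16.49 and 16.50 in knockouts, a difference of -0.45 ± 0.11 (SE; adjusted p = 0.0276). Ndufa9 was 17.06, 17.15, 16.78 and 16.99 in controls and 16.63, 16.50, 16.55 and 16.62 in knockouts, a difference of -0.42 ± 0.12 (SE; adjusted p = 0.0441). Both pairs of groups were apart. The Ndufa8 call was lost without any of 6 animals and that of Ndufa9 without any of 7, so these calls lay close to the threshold.

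Several complex I genes stopped just short of it and are named because of that, after their values were seen. Ndufb11, an accessory subunit of the membrane arm, had a difference of -0.40 (adjusted p = 0.0532) and Ndufv1, the flavin-bearing core subunit that binds NADH, one of -0.39 (adjusted p = 0.0544). Neither had overlapping groups. Both were called lower after quantile normalization, and Ndufv1 also after cyclic loess. Ndufa4l2, a paralogue of Ndufa4 known as a target of hypoxia signalling, differed by -0.53 (adjusted p = 0.0605). It was called lower after quantile normalization but not after cyclic loess. The remaining core genes were nearer to 0: Ndufs7 differed by -0.21, Ndufs1 by -0.19 and Ndufv2 by 0.12, all with adjusted p of 0.283 or more.

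Ndufb5, an accessory subunit, had closely spaced animals, at 16.44 to 16.49 in controls and 16.20 to 16.30 in knockouts. Its difference of -0.22 gave an adjusted p of 0.194 with limma. It was called lower with ordinary t statistics, which use only the gene's own spread, and with a higher floor. Ndufa11, on the other hand, had the widest controls, because control 1 was at 15.72 while controls 2 to 4 were at 17.21 to 17.37. Its difference was 0.12 with all animals and -0.28 without control 1, and it was called in neither case.

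Start regions are shown for the 6 complex I and IV genes that were lower, because nuclear genes of the chain are known to share regulatory motifs there. RefSeq promoters of build GRCm38.p6 were matched for 64 of the 78 genes, from 250 bases before to 50 after the start. They were searched on both strands for the letters GCGCATGC (an NRF1 core), CCGGAAG (the ETS core bound by GABPA), AAGGTCA (the ERR core) and AAGATGGC (YY1). The printed stretch is the 150 bases before the start, on the minus strand in each case, and capitals mark these letters or their reverse complement. In order, the stretches lie at chr2:90904722-90904871, chr2:36049339-36049488, chr5:115348959-115349108, chr6:11907451-11907600, chr19:3912775-3912924 and chr6:126849145-126849294.
Ndufs3: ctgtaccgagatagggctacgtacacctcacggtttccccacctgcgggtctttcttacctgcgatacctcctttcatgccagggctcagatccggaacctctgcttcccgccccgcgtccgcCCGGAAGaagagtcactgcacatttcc
Ndufa8: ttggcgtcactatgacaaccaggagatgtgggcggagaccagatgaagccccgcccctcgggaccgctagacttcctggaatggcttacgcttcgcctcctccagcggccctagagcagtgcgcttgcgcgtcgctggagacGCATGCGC
Cox6a1: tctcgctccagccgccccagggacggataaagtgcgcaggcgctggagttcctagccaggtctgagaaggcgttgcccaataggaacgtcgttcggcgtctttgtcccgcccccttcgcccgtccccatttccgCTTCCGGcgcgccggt
Ndufa4: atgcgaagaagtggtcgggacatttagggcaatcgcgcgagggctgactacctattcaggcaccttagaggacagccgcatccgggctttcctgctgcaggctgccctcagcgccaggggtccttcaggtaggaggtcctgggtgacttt
Ndufs8: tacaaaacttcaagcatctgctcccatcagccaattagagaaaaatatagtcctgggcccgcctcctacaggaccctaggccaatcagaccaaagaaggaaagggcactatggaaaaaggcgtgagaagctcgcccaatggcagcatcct
Ndufa9: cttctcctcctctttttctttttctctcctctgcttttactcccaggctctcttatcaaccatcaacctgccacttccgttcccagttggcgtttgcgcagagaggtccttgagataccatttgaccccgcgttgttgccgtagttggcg

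Ndufs3 holds the ETS letters at position -27 and again at 1, counted from the start at position 0. Ndufa8 has the NRF1 letters at -8, directly before the start, and Cox6a1 the ETS letters at -16 and, beyond the printed stretch, an overlapping NRF1 pair at -162 and -160. The printed stretches of Ndufa4, Ndufs8 and Ndufa9 hold none of the 4. After the start, outside these stretches, Ndufs8 has the ETS letters at 15 and Ndufa9 the YY1 letters at 29. Over the 64 promoters the NRF1 letters occurred in 14.1%, against 2.8% of all 27025 promoters, the ETS letters in 18.8% against 9.12%, the ERR letters in 7.81% against 4.66% and the YY1 letters in 14.1% against 2.88%. In 8 of the 9 member promoters with the YY1 letters these lay after the start (88.9%), against 43.1% of all promoters that hold them.

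The letters occurred in both called and uncalled genes: of 6 called subunit genes with a promoter, 2 held the NRF1 and 3 the ETS letters, and of 55 subunit and assembly factor genes that were not called, 7 and 9 did. The YY1 letters were in 1 of the 6 and 7 of the 55, and the ERR letters in 0 and 5. With 6 promoters these shares are a description only.

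**Figure D2:**
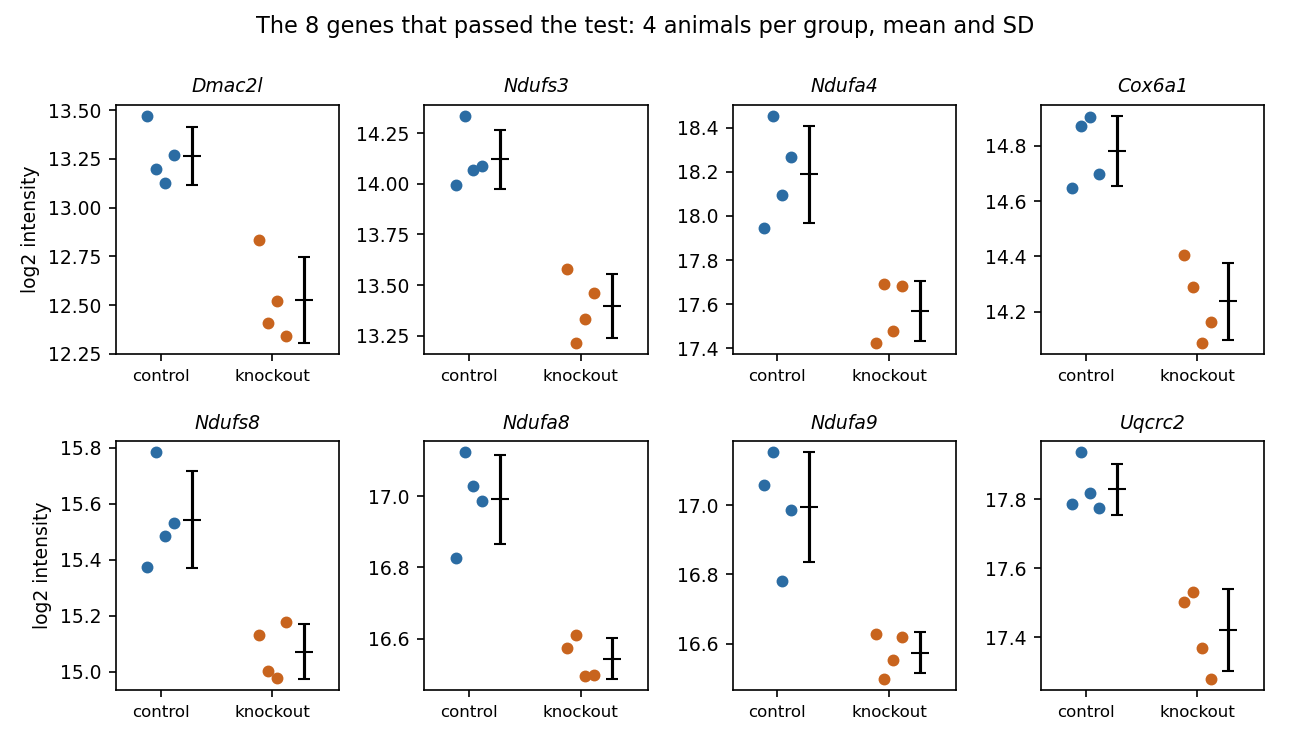
Log2 intensity (y axis) of the 8 genes called lower, with a point for each of 4 control and 4 knockout animals and the mean with its SD beside them; each panel has its own y axis, which does not start at 0. In each of the 8 panels all knockout animals lie below all control animals.

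Complex I needs dedicated assembly factors, of which 4 carry an Ndufaf symbol. None was called with limma (0 of 4; 2 had an unadjusted p under 0.05), and they did not share a direction. Ndufaf3, which acts early in building the ubiquinone-reducing arm, was 13.59, 13.94, 13.64 and 13.72 in controls and 13.49, 13.25, 13.23 and 13.21 in knockouts. The groups did not overlap, with a difference of -0.43 (adjusted p = 0.0528). Ndufaf3 was called lower after quantile normalization and after cyclic loess. Ndufaf1, a factor of the membrane arm, differed by -0.37 (adjusted p = 0.1), while Ndufaf4 differed by 0.24 (adjusted p = 0.213) and Ndufaf2 by 0.17.

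The 9 measured factors of complex I with other symbols had a median of -0.18. Of them 1 was lower and 0 higher, beside 5.01% and 4.28% of all genes. That gene, Tmem126a, a membrane protein of complex I assembly, showed a larger difference than any subunit. It was 16.29, 16.52, 16.23 and 16.35 in controls and 15.57, 15.32, 15.20 and 15.46 in knockouts. The groups were well apart, at -0.96 ± 0.12 (SE; 1.94-fold lower, adjusted p = 7.6e-04).

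In complex II, succinate dehydrogenase, 0 of 4 genes were called with limma (1 had an unadjusted p under 0.05), beside 9.28% of all genes. All 4 differences were negative, with a median of -0.18. Sdhb, the iron-sulfur subunit, was 17.92, 18.29, 18.23 and 18.18 in controls and 17.69, 18.02, 17.57 and 17.38 in knockouts. Knockout 2 lay above control 1, and the difference of -0.49 ± 0.15 (SE) did not pass (adjusted p = 0.0665). Sdhd, a membrane anchor, differed by -0.25 with groups that did not overlap (adjusted p = 0.237). Sdhc, the other anchor, differed by -0.11 and Sdha, the flavoprotein, by -0.098, each within the spread of the animals. The 4 assembly factors of complex II had a median of -0.24 and 0 calls (limma), and none of them is a member here.

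Complex III, the cytochrome bc1 complex, had 6 measured genes, all with negative differences and a median of -0.24. Uqcrc2, a core protein on the matrix side, was the 1 called lower. It stood at 17.79, 17.94, 17.82 and 17.77 in controls and at 17.50, 17.53, 17.37 and 17.28 in knockouts, apart by -0.41 ± 0.11 (SE; 1.33-fold lower, adjusted p = 0.0414). That call too was lost without any of 7 animals. Uqcrfs1, the Rieske iron-sulfur protein, differed by -0.37, also with groups apart (adjusted p = 0.0698). Uqcrc1, the partner of Uqcrc2, ranged from 15.21 to 16.15 among knockouts and differed by -0.30 (adjusted p = 0.374).

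Complex IV, cytochrome c oxidase, had 1 of 15 genes lower and a median of -0.17. That is 6.67%, near the 5.01% of all genes called lower. Its called gene was Cox6a1, the isoform of subunit VIa found in most tissues. Control animals 1 to 4 were at 14.65, 14.87, 14.90 and 14.70 and knockouts at 14.41, 14.29, 14.09 and 14.16. The groups did not overlap, with a difference of -0.54 ± 0.12 (SE; 1.46-fold lower, adjusted p = 0.0171). Without knockout 3 the adjusted p was 0.0618. Cox7b2, an isoform best known from testis, lay at 7.57 to 7.77 in controls and 7.98 to 8.12 in knockouts, not far above the dim level. Its difference of 0.33 did not pass (adjusted p = 0.078) but did after quantile normalization (adjusted p = 0.0211) and cyclic loess (adjusted p = 0.0256).

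Cox5a, a subunit of the matrix face, was 18.36 to 18.78 in controls and 18.18 to 18.33 in knockouts, with a difference of -0.27 (adjusted p = 0.208); it is named because its groups did not overlap. Cox4i1, the common form of the regulatory subunit that binds ATP, differed by -0.22, and its lung-enriched form Cox4i2 by -0.30 (adjusted p = 0.193). Cox8a, the form found in most tissues, differed by -0.08 and the muscle form Cox8b by 0.06.

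Muscle isoforms were set against their counterparts by taking the difference between both genes within each animal, which shows unequal change but no levels. Over 5 pairs, each tested with a two-sided exact permutation test over 8 animals whose smallest possible p is 0.0286, 0 passed after adjustment over the 5; at the unadjusted level 0 did as well. Cox6a1 relative to the muscle isoform Cox6a2 changed by -0.38 ± 0.14 (SE; p = 0.0857, adjusted p = 0.429, exact permutation test). The other shifts were 0.08 for Cox4i1 over Cox4i2, -0.058 for Cox7a1 over Cox7a2, -0.14 for Cox8a over Cox8b, and 0.12 for the c-ring genes Atp5g1 over Atp5g3.

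For Cox6a2 and Cox7a2 the result hung on the array row. The brighter Cox6a2 row, which stands for the gene, differed by -0.17 (adjusted p = 0.499). The dimmer row was 12.85, 13.22, 13.13 and 13.09 in controls and 13.74, 13.71, 13.58 and 13.68 in knockouts. Every knockout was above every control there, at 0.60 ± 0.12 (SE; 1.52-fold higher). With each of the 26423 rows tested as a feature its adjusted p was 0.013, and it was the 1 member row called higher, beside 3.23% of all rows called higher and 3.77% called lower. Against this dimmer row, taken after its values were seen and so given with no test, Cox6a1 shifted by -1.15 within animals. Cox7a1 against the dimmer row of Cox7a2, taken likewise, shifted by -0.53.

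Of 9 genes with more than 1 row, 4 had rows of opposite sign: Cox6a2, Cox7a2 (-0.21 and 0.26), Ndufa11 and Ndufs4. The 3 rows of Ndufv3 agreed in sign, at -0.41, -0.36 and -0.14. What the separate rows detect is not given by the annotation, so transcript forms were not assigned.

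**Figure D3:**
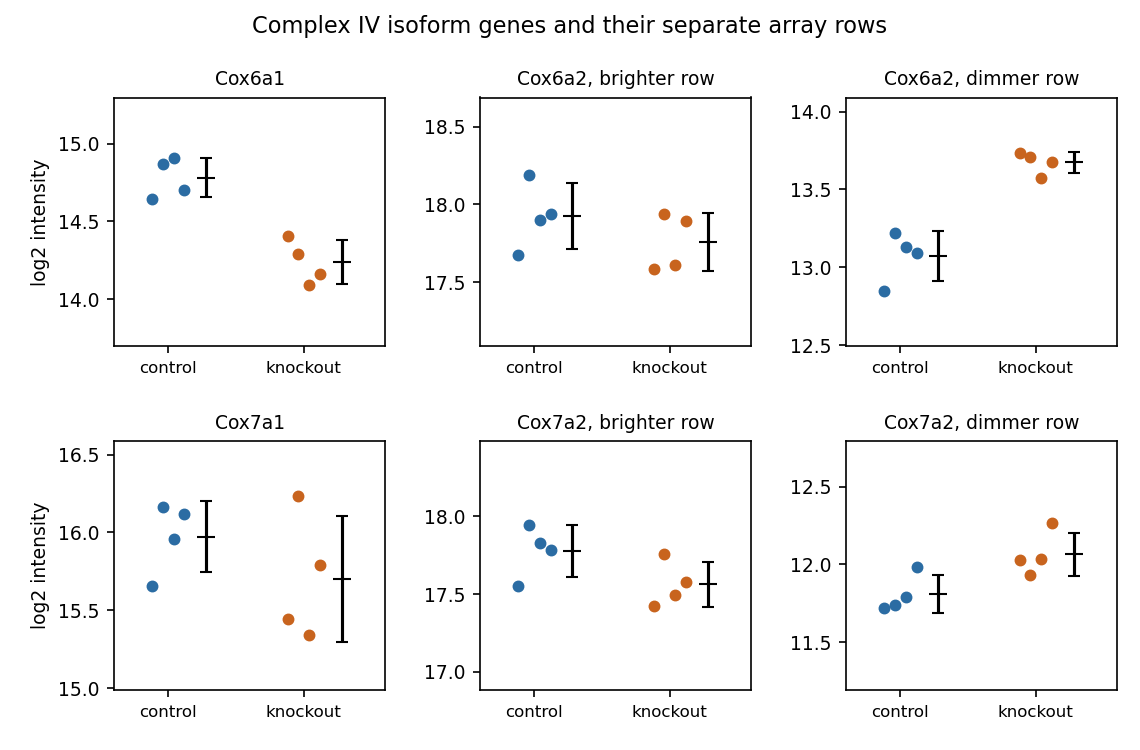
Log2 intensity (y axis, 1.6 units high in each panel) of Cox6a1 and Cox7a1 and of the brighter and dimmer rows of Cox6a2 and Cox7a2; points are animals, and bars are the mean and SD of 4. For Cox6a2 the knockout animals overlap the controls in the brighter row and lie above all of them in the dimmer row.

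In complex V, 0 of 11 genes were called with limma (1 had an unadjusted p under 0.05), beside 9.28% of all genes. The median difference of the complex was -0.10. The sign of that median turned with scaling, to 0.06 after quantile normalization and 0.041 after cyclic loess, so no direction is given for the complex. The medians of complexes I to IV stayed negative under both. Atp5o, the stalk subunit that confers sensitivity to oligomycin, was 11.01, 11.24, 11.04 and 11.26 in controls and 11.32, 11.67, 11.41 and 11.62 in knockouts. Every knockout was above every control, with a difference of 0.37 ± 0.12 (SE) that did not pass (adjusted p = 0.0909). It passed after quantile normalization (adjusted p = 0.0455) and cyclic loess (adjusted p = 0.0387).

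Atp5d, the delta subunit of the central stalk, differed by -0.36 (adjusted p = 0.232) at a level close to the dim limit. Atp5j2, a small subunit of the membrane part, differed by -0.23. The alpha subunit gene Atp5a1, at -0.050, and the c-ring genes Atp5g1, at 0.024, and Atp5g3, at -0.10, were close to the middle of all genes. Atp5b, the catalytic beta subunit, had a difference of 0.16 (adjusted p = 0.52). A test of whether complex I and complex V differ was not run.

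Dmac2l, annotated Atp5s and also known as factor B, an ATP synthase coupling factor, had the largest difference of all 78 genes. It was 13.47, 13.20, 13.12 and 13.27 in controls and 12.83, 12.41, 12.52 and 12.34 in knockouts. The groups did not overlap, at -0.74 ± 0.14 (SE; 1.67-fold lower, adjusted p = 0.0074), and the call held without any 1 animal. Its other row differed by -0.92. The remaining genes of this set were near 0, with Emc8, part of a membrane insertase of the endoplasmic reticulum, at -0.018, Cox7a2l, a supercomplex factor, at -0.094, and Dmac2, a complex I assembly protein, at 0.16.

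**Figure D4:**
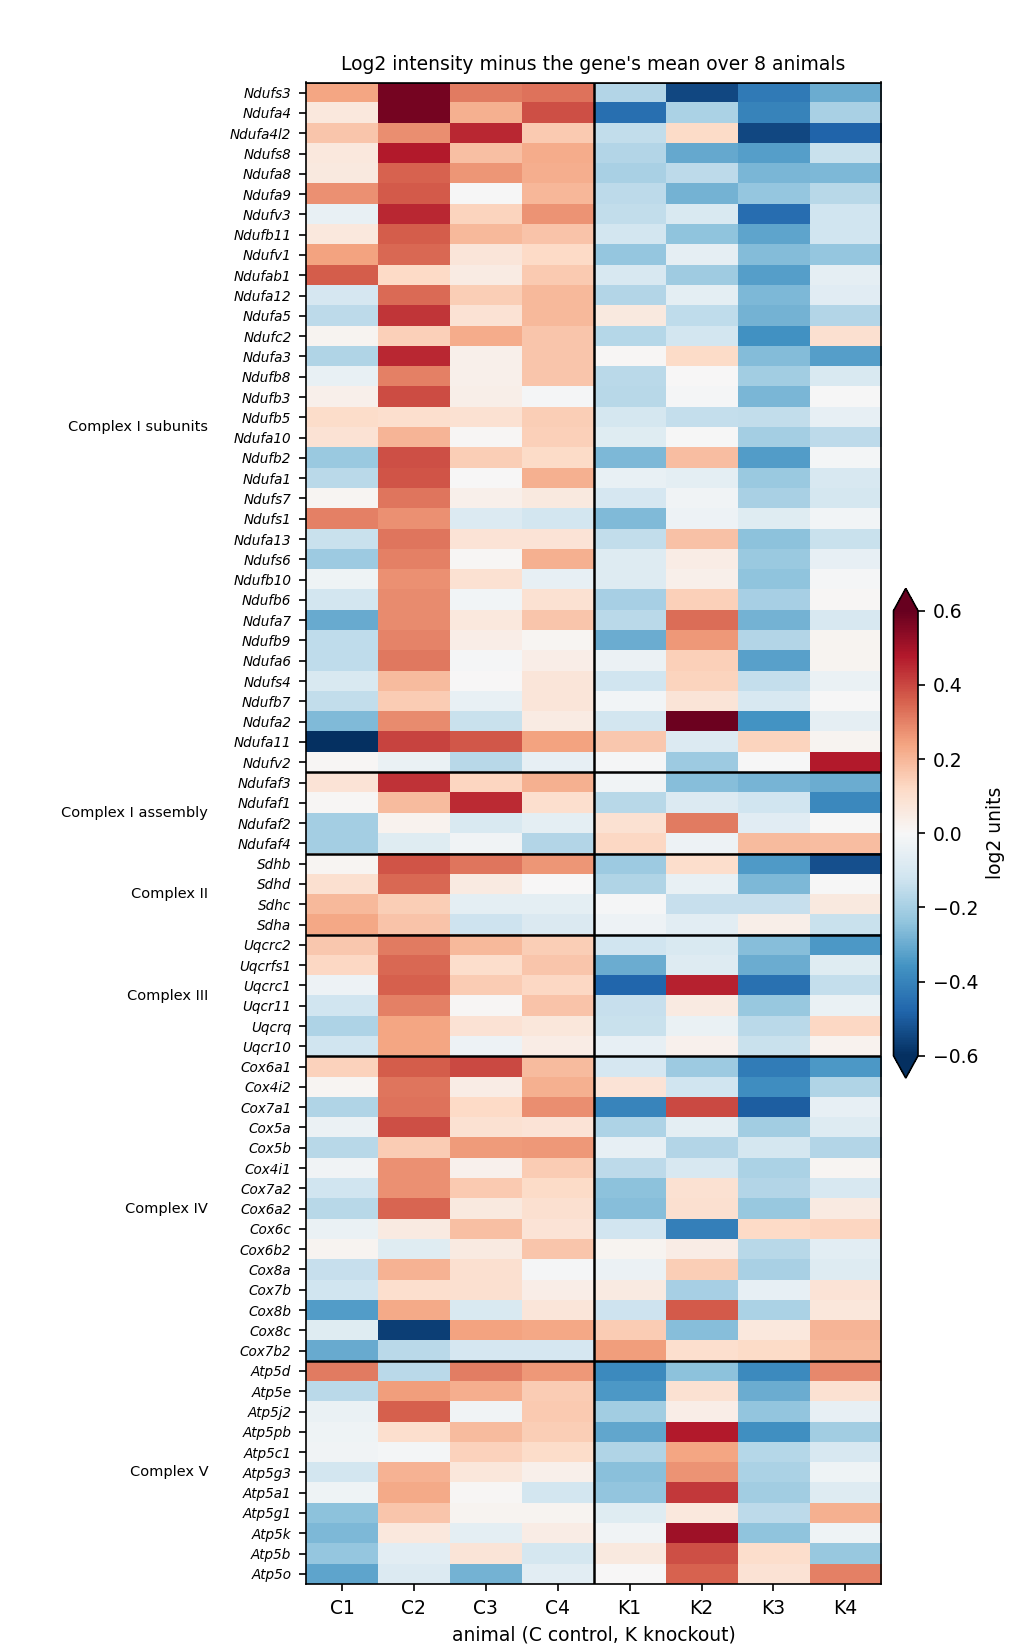
Log2 intensity of each subunit and assembly factor gene (rows, by complex and then by difference) minus its mean over 8 animals, in control animals C1 to C4 and knockout animals K1 to K4; red is higher and blue lower, and colours saturate at 0.6 units in either direction. Control 2 is red in most rows and knockout 3 blue, and complex V genes lie on average 0.24 above their mean in knockout 2.

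Members moved together from animal to animal within a group. Control 2 was the highest control for 54 of 78 genes and control 1 the lowest for 56, while knockout 2 was the highest knockout for 45 and knockout 3 the lowest for 42. Among the 251 bright genes of any function control 2 was likewise highest in 74.1% and knockout 2 in 62.9%. After quantile normalization control 2 was highest for 19 members and knockout 2 for 21, and after cyclic loess for 15 and 26. The low place of control 1 stayed, at 59 and 58 of 78 genes, and it was lowest in 37.8% of bright genes before and 37.5% after quantile normalization. With 1 animal left out, 4 members were called without control 2 and 6 without control 1. The count was 9 without knockout 2, and 2 (Ndufs3 and Dmac2l) without knockout 3. It was 5 without control 3, and 4 without each of control 4, knockout 1 and knockout 4. A lower count was thus not particular to control 1 or control 2. The typical SD of a member was 0.168 between single hybridisations of the same RNA. Between the animal means of a group, each averaged over 3 hybridisations, it was 0.160. As 1 is of single arrays and the other of averages, these values do not compare technical with animal spread directly.

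Larger differences than in any subunit were found among genes that feed electrons to ubiquinone or make it. Of 18 measured, 6 were lower and 0 higher, beside 5.01% and 4.28% of all genes (9.56% and 3.59% at level 16 or above). The median of the list was -0.36. This list was drawn up with earlier results of these data known, Etfa and Sirt3 among them. Coq10a, which binds ubiquinone and is needed for its use in the chain, was 16.86, 16.89, 16.58 and 16.66 in controls and 15.54, 15.07, 15.36 and 15.46 in knockouts. The groups were more than 1 log2 unit apart at their nearest animals, and the difference was -1.39 ± 0.13 (SE; 2.62-fold lower, adjusted p = 1.5e-04).

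Sqor, which oxidises sulfide and passes the electrons to ubiquinone, was 14.35, 14.50, 14.32 and 14.42 in controls and 13.34, 13.07, 13.13 and 13.20 in knockouts. It was lower by a difference of -1.21 ± 0.11 (SE; 2.31-fold, adjusted p = 1.1e-04). Coq7, the hydroxylase late in ubiquinone synthesis, was 15.29, 15.39, 15.13 and 15.15 in controls and 14.23, 14.18, 13.98 and 14.20 in knockouts. Again the groups were apart, at -1.09 ± 0.11 (SE; 2.14-fold, adjusted p = 2.3e-04).

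The others, named because they complete this short count, were Etfa, a subunit of the electron transfer flavoprotein of fatty acid oxidation (-0.67), its ubiquinone reductase Etfdh (-0.67) and Coq9, the partner of Coq7 (-0.54). Of the 6, 5 kept their call without any 1 animal, and Coq9 lost it without knockout 3 (adjusted p = 0.0583). Coq10b, the paralogue of Coq10a, had a difference of -0.74, but its animals overlapped (adjusted p = 0.0779).

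**Figure D5:**
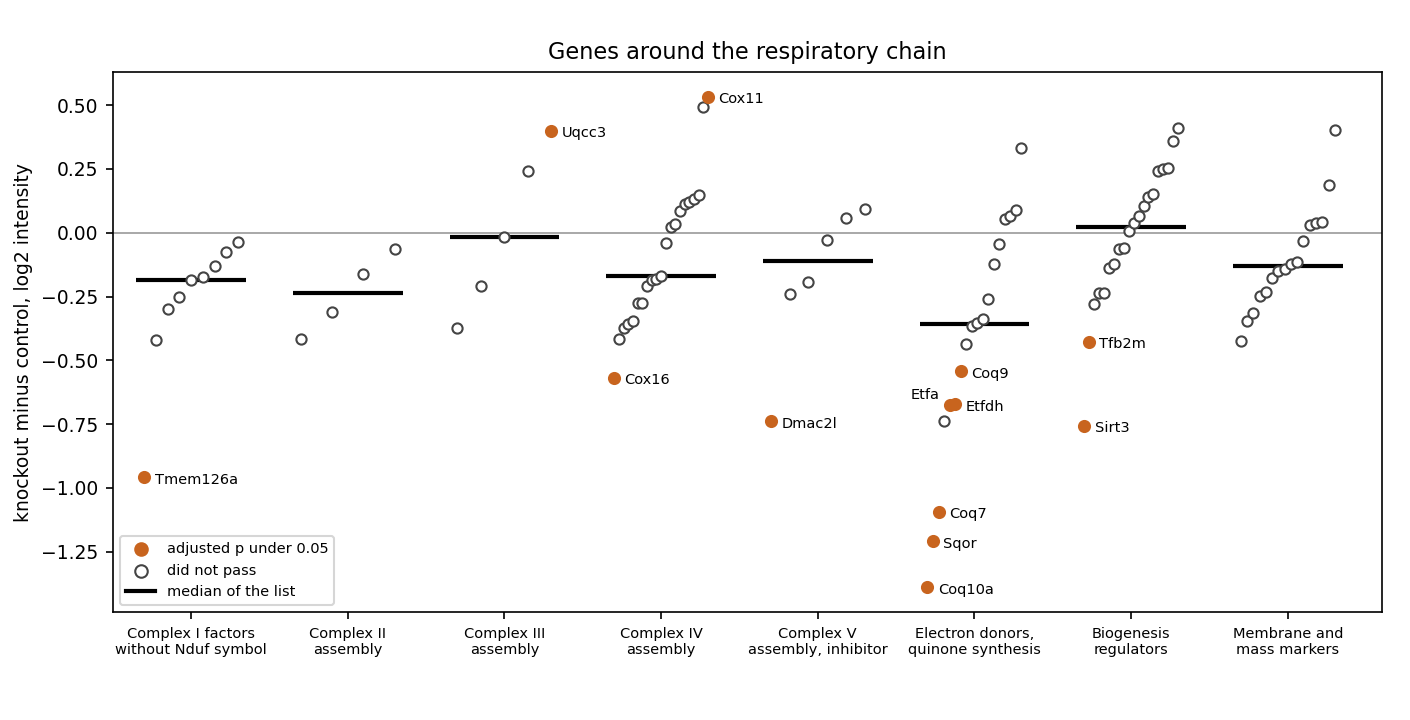
Knockout minus control difference in log2 intensity (y axis) of genes that assemble the complexes, feed or make ubiquinone, regulate mitochondrial biogenesis or mark mitochondrial membranes (x axis, by list); filled points passed at an adjusted p under 0.05 and bars are list medians. The 3 lowest points, Coq10a, Sqor and Coq7, belong to the list of electron donors and quinone synthesis.

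Among 21 measured assembly factors of complex IV, 1 was lower and 1 higher, with a median of -0.17. For this and the other counts of this paragraph, 5.01% of all genes were called lower and 4.28% higher. Cox16, which takes part in copper delivery to the enzyme, was 1.48-fold lower (difference -0.57, adjusted p = 0.0144; 0.0532 without knockout 3). Cox11, a copper chaperone for the same enzyme, was 1.45-fold higher (difference 0.53, adjusted p = 0.0258). Its call was lost without any of 5 animals. Of 5 complex III factors 1 was higher, Uqcc3 (difference 0.40, adjusted p = 0.0444), and that call was lost without any of the 8 animals. The 6 genes of complex V assembly and inhibition had 1 lower, Dmac2l itself.

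Of 20 regulators of mitochondrial biogenesis 2 were lower and 0 higher, beside 5.01% and 4.28% of all genes. Their median was 0.021. Sirt3, the main mitochondrial deacetylase, was 1.69-fold lower (difference -0.76, adjusted p = 0.0027), and Tfb2m, a factor for transcription of mitochondrial DNA, differed by -0.43 (adjusted p = 0.0414; lost without any of 7 animals). Ppargc1a, the coactivator best known for driving these genes in muscle, ranged from 11.37 to 12.01 in controls and from 11.45 to 12.19 in knockouts and differed by 0.14 (adjusted p = 0.683). It is named for that role, as are Tfam, at 0.064, and Esrra, at 0.0053. The 16 markers of mitochondrial membranes and mass had 0 calls (limma) and a median of -0.13.

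Markers of other cells moved as well, and their part in the differences of chain genes was not tested. Their counts stand beside 5.01% of all genes called lower and 4.28% called higher. Of 12 endothelial markers 3 were lower (Gpihbp1, Icam2 and Emcn) and 0 higher, with summed intensities of 115470 to 147163 in controls and 76892 to 107987 in knockouts. Of 5 smooth muscle and pericyte markers 3 were lower (Acta2, Rgs5 and Tagln), with sums of 30572 to 38584 and 21200 to 26119, and Cnn1 was dim in both groups. Of 5 slow fibre markers 3 were higher (Atp2a2, Tnni1 and Tnnt1) and 0 lower, with sums of 31453 to 35041 and 41853 to 55734. The other rows of Atp2a2 differed by 1.80 (adjusted p = 1.4e-04, limma with every row tested) and by -0.44 (adjusted p = 0.304). Fast fibre markers had 0 of 5 called (limma), with sums of 1556703 to 2126193 and 1335146 to 2044572.

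Of 8 adipocyte markers 2 were higher (Ucp1 and Cidea) and 2 lower (Lep and Cidec), with sums of 79812 to 101768 in controls and 56369 to 94159 in knockouts, and Elovl3 was dim in both. Of 7 macrophage markers 1, Cd163, was lower, with sums of 8490 to 14471 and 8859 to 22180. Fibroblast markers had 0 of 8 called (limma), with Col1a1 dim in both groups, and of 2 blood markers Alas2 was lower.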

How the data were processed

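The deposited values are the authors' linear intensity of each of 26423 probe rows on 24 arrays. Per the labels, RNA was extracted with Trizol and total RNA was labelled; the dye remains unclear, being Cy3 in the label field and Cy5 in the labelling protocol. The sources used here name no scanner, background correction or scaling. Equal column medians show a scaling to a common median, and 0% to 5.37% of an array's values lay at or below 0. The 5th percentile of an array ran from -2.35 to 125, and 125 served as the dim level.

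Values under 38.8, the 5th percentile of all values, were set to that floor, log2 was taken, and the 3 hybridisations of an animal were averaged. The row of highest mean stood for a gene. Of 26423 rows 20377 had 1 symbol, 0 several and 6046 none; 18213 symbols were current in a RefSeq table of GRCm38.p6, 2126 were synonyms and 38 matched neither. The test was that of limma (version 3.58.1, under R version 4.3.3), fitted to the means of the 8 animals, with Benjamini-Hochberg adjustment over 17742 genes, and the code was tested on simulated data. The number of animals limits the precision; the labels give each its own number. Deviations of same-numbered hybridisations of different animals correlated at -0.63 to 0.75 (median 0.042; -0.017 for different numbers), so the numbers were not taken to pair them.

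Members and gene lists were chosen with earlier results of these data known. Named are members that passed, the 3 of smallest p per complex, complex II, isoform pairs and up to 3 passing genes per list; others are said to be named otherwise, and for animal, row and marker results the named genes are those that showed them. Alternatives were other normalizations, floors, filters, row rules, variance models, blocks and left-out animals or hybridisations.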

Additional observations from a re-analysis of the deposited data

Results flagged for a closer look

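In 7 of 156 sets (each member in each group of 4 animals), 1 animal stood apart from the other 3 by Dixon's criterion, which chance alone gives in about 1 of 20 sets. Ndufa11 was at 15.72 in control 1 and at 17.21 to 17.37 in the other controls. Control 2 stood apart in 3 genes: it was high for Ndufs7 (17.46 against 17.15 to 17.19) and Ndufb3 (15.70 against 15.30 to 15.34) and low for Atp5d (7.003 against 7.42 to 7.47). Among knockouts, Ndufv1 was high in knockout 2 (16.76 against 16.56 to 16.59) and Ndufaf3 in knockout 1 (13.49 against 13.21 to 13.25), while Ndufv3 was low in knockout 3 (15.94 against 16.24 to 16.30). None of the 8 genes called lower is among these 7.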

How the results depend on the processing

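The median difference of the members stayed negative in each alternative run, and was -0.092 after cyclic loess; leaving out 1 animal or hybridisation gave -0.25 to -0.13. The count of 8 called members was 14 without dim rows, 17 (15 lower, 2 higher) with all arrays and a random animal term, 17 again (15 and 2) with the hybridisation number as a replicate block besides, 14 with an intensity trend and robust variances, 20 (19 and 1) with array weights, 13 when a constant was added instead of a floor and 14 (13 and 1) with a higher floor. It was 0 in either series of animal numbers alone (2 animals per group; limma, with 0 members and 0 genes showing a different response by series at an adjusted p under 0.05, and 2 and 2065 at an unadjusted p under 0.05). Leaving out 1 animal or hybridisation gave 2 to 10. Quantile normalization called 12 and cyclic loess 10, each sharing 6 with the 8 and adding Atp5o and Cox7b2 as higher. Both also added Ndufaf3 and Ndufv1 as lower, and quantile normalization added Ndufa4l2 and Ndufb11 as lower besides. Ndufa9 and Uqcrc2 were not called under either, nor with every row tested. The count of electron donor and quinone genes, 6, was 11 with all arrays and a random animal term, 10 with the replicate block as well, 0 in series A of the animal numbers and 3 in series B, and 5 to 8 when 1 animal or hybridisation was left out. Replicate numbers mark hybridisations within an animal, so that block pairs no animals. For the 70 members not called, 1960 alternatives gave 78 new calls and 84 changes of sign without a call, and no called value changed its sign. The cause of these changes was not tested. Leaving out the 4 genes that are not subunits, and taking the dimmer rows of Cox6a2 and Cox7a2, were chosen after seeing the data. Precision is limited by 4 animals per group, and at the dim end by signal over background, as for Atp5d and Cox8c.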

Other observations

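The row annotated for Atp5b and the row annotated Atp5sl (Dmac2) gave nearly the same values: their log2 intensities correlated at 0.916 over 24 arrays and 0.976 over 8 animal means, with a median gap of 0.030 and a largest gap of 0.109 between animal means. Their differences between groups were both 0.16. Whether both rows detect 1 transcript was not tested.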
